A study of Mus musculus with 12 samples.

Results

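The genes described here are 10 genes that mark cortical inhibitory interneurons: Gad1, Gad2, Slc32a1, Dlx1, Dlx2, Dlx5, Dlx6, Lhx6, Pvalb and Erbb4. They were taken by symbol from a table of raw read counts for 23893 genes, and all 10 were found. RNA-seq was performed on 12 mouse cortical neuron cultures, 3 in each of 4 groups, prepared from E13.5-15.5 embryos. The study asked how loss of topoisomerase 1 (TOP1) and its inhibition by topotecan, a drug that holds the enzyme on the DNA it has cut, change transcript levels in neurons. The sample labels give the strain as C57BL6 and the genotypes as wild-type and Top1 conditional knockout (cKO), whereas the study's methods describe both as Top1 fl/fl neurons.

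All cultures were infected at 3 days in vitro with a lentivirus in which the CaMKIIα promoter drove tdTomato, a red fluorescent protein. In the WT groups the virus carried tdTomato alone, and in the Top1 cKO groups it carried tdTomato joined to CRE, the recombinase that removes the floxed part of Top1. From day 15 in vitro the cultures received vehicle (0.003% DMSO; WT-Veh and Top1 cKO-Veh) or 300 nM topotecan (WT-Topot and Top1 cKO-Topot) for 3 days. CaMKIIα is best known from excitatory neurons, and the share of interneurons that expressed CRE is not given, so Top1 loss in the cells that express these 10 genes was not measured directly. Per the labels, 85 to 90% of the cells were transduced.

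Cortical interneurons make and release GABA, the main inhibitory transmitter of the cortex. GAD67 and GAD65, the products of Gad1 and Gad2, make GABA from glutamate, and the transporter VGAT, the product of Slc32a1, loads it into synaptic vesicles. Interneurons are born in the ventral forebrain, where the DLX homeodomain factors and, in the medial ganglionic eminence, the LIM homeodomain factor LHX6 direct their fate and migration. Parvalbumin, the product of Pvalb, is a calcium-binding protein of fast-spiking interneurons that appears late in development, and ErbB4 is a receptor tyrosine kinase for neuregulins that is concentrated in interneurons of the cortex.

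Libraries held 1730164 to 4583777 counts. Levels are given as CPM, the count relative to the size of the library, scaled by the TMM factors of edgeR over all 12 libraries, as mean ± SD of 3 cultures. Top1 itself was 117.0 to 163 CPM in the WT-Veh libraries and 129 to 140 CPM in the WT-Topot libraries, and 27.1 to 44.0 CPM and 28.4 to 37.5 CPM in those of Top1 cKO-Veh and of Top1 cKO-Topot. The labels do not say whether the cultures came from separate animals, so p-values measure the spread between these cultures only. In the fits with a replicate block, described below, they measure the spread left after libraries of the same number are matched. The test estimates this spread partly from all genes together. With 3 cultures per group it can therefore be smaller than the spread of a single gene's own matched libraries, and the blocked p-values are to be read with that limit.

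On the mouse assembly NCBIM37 (mm9), 6 of the genes lie on chromosome 2: Gad1 at chr2:70391129-70440071 (+), Gad2 at chr2:22477725-22549394 (+), Slc32a1 at chr2:158436494-158441484 (+), Dlx1 at chr2:71366170-71372038 (+), Dlx2 at chr2:71381466-71384811 (-) and Lhx6 at chr2:35937470-35960928 (-). Dlx5 lies at chr6:6827805-6832085 (-), Dlx6 at chr6:6813334-6818568 (+), Pvalb at chr15:78021544-78036830 (-) and Erbb4 at chr1:68078760-69154633 (-). Counts were taken over exons. The genes differ widely in the length of DNA that is transcribed: the span is 3.35 to 5.87 kb for the 4 Dlx genes and Slc32a1, 15.3 kb for Pvalb, 23.5 kb for Lhx6, 48.9 kb for Gad1, 71.7 kb for Gad2 and 1076 kb for Erbb4.

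A pair of these loci carry antisense transcripts that the table also lists. Dlx1 shares 335 bp of exon with Dlx1as on the opposite strand, and Dlx6 lies within the span of Dlx6os1 without shared exon sequence. Whether the counting used strand is not given in the sources used here, so reads of Dlx1 and Dlx1as over the shared bases cannot be told apart. Gm14205, an annotated transcript opposite Slc32a1 that shares 697 bp of its exons, is not a row of the table.

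Promoter sequence from RefSeq, on the later assembly GRCm38.p6, matched 8 of the 10 genes, with 11 start sites among them (Dlx5 and Dlx6 were not matched). The 250 bases upstream of the start site are shown for Gad1, Gad2, Dlx1 and Erbb4. In WT-Topot against WT-Veh the mean level was lower for Gad1, Gad2 and Erbb4 and higher for Dlx1. Of the main fits without and with a replicate block, Gad1, Gad2 and Dlx1 passed the threshold used below only in that with the block. Other tests and fits with a library left out are given at the end. The sequences are written 5′ to 3′ along the strand of the gene, with every CG pair in capitals. The windows are chr2:70561879-70562128 (+) for Gad1, chr2:22622077-22622326 (+) for Gad2, chr2:71529195-71529444 (+) for Dlx1 and chr1:69108060-69108309 (-) for Erbb4.
Gad1: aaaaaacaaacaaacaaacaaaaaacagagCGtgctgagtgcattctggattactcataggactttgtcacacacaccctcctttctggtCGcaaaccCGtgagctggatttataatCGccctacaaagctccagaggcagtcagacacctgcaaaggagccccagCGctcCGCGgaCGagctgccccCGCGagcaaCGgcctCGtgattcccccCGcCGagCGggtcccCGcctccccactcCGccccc
Gad2: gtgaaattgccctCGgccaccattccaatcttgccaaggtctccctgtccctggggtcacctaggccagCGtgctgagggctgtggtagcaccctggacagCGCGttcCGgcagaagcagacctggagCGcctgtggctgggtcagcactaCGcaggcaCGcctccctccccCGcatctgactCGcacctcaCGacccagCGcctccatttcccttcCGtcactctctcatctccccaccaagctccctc
Dlx1: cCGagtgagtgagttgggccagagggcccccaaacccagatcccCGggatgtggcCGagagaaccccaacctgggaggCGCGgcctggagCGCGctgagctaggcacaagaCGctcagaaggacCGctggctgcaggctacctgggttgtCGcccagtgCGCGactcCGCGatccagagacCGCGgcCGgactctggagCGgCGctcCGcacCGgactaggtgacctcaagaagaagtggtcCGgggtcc
Erbb4: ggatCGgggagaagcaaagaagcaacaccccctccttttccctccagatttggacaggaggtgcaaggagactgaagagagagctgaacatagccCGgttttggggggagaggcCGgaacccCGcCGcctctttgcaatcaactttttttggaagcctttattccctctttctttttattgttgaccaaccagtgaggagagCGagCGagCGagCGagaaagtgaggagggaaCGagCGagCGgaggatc

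The 4 windows hold 17, 13, 22 and 12 CG pairs, where the median of all 32851 promoters of this length is 6. Their GC content is 58.0% for Gad1, 64.0% for Gad2, 68.0% for Dlx1 and 54.0% for Erbb4, beside a median of 52.4%. On both strands, 3 motifs were searched, none of which overlaps another. The homeodomain core TAATTA was in none of the 11 windows of these genes and in 4.84% of all promoters. The TATA box core TATAAA was in 1 window, that of Gad1, on the opposite strand from 141 bases upstream, and in 12.4% of all promoters. The GC box GGGCGG was in 4 windows (Gad1, Dlx2 and 2 of Lhx6) and in 32.7% of all promoters. A match of letters does not show that a factor binds there, and no match says nothing of sites outside these windows.

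The GABA genes were by far the most abundant of the 10 in untreated cultures. Per kb of exon, WT-Veh cultures had a mean of 73.0 CPM for Gad2, 67.8 for Slc32a1 and 58.8 for Gad1. The factors followed, at 6.39 CPM per kb for Lhx6, 5.55 for Dlx1, 3.804 for Dlx5, 3.15 for Dlx2 and 1.34 for Dlx6. Pvalb was at 2.42 CPM per kb and Erbb4 at 1.06. Among the GABA genes the order was within the spread of the cultures, which ranged from 52.3 to 106 CPM per kb for Gad2, from 51.9 to 80.0 for Slc32a1 and from 28.5 to 82.9 for Gad1.

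**Figure D1:**
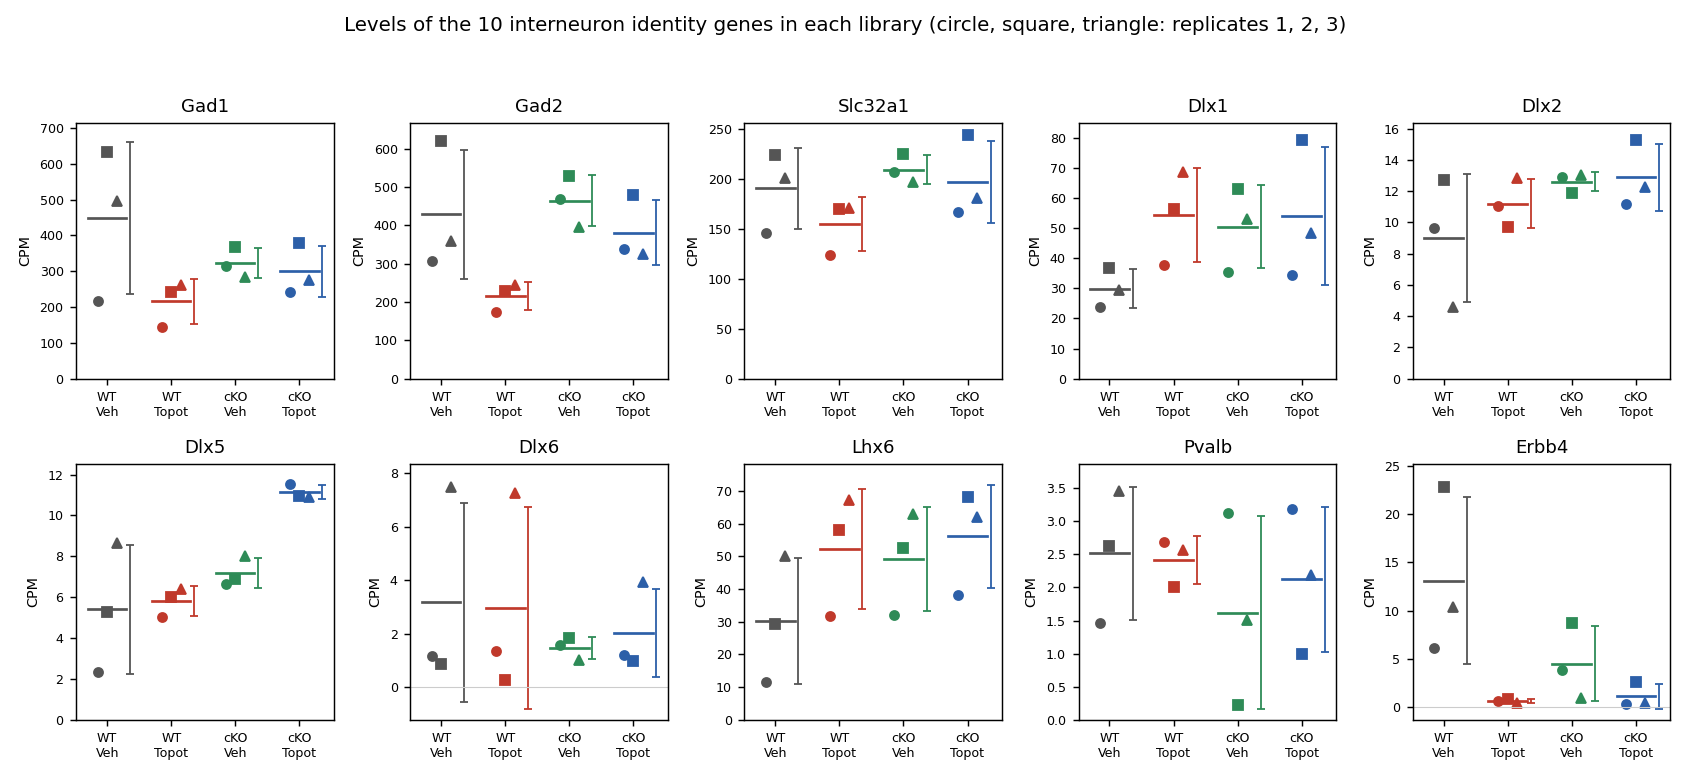
Level of each of the 10 genes in CPM (linear axis that includes 0) in the 12 libraries, by group; points are libraries (circle, square and triangle for replicates 1, 2 and 3), horizontal lines are means and bars the SD. Erbb4 sits at 0.428 to 0.859 CPM in WT-Topot and at 6.14 to 22.8 CPM in WT-Veh, and Dlx1 is higher in every WT-Topot library than in any WT-Veh library.

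Replicate 1 was the lowest library of its group in 23 of 40 cases over the 10 genes and 4 groups, and the highest in 4. For the 5 genes whose mean was 20 CPM or more, replicate 1 was the lowest in 16 of 20 cases and never the highest, and replicate 2 was the highest in 13 and never the lowest. The order was not the same in every group, since replicate 3 was the highest for all 5 of these genes in WT-Topot, and the lowest for Gad1, Gad2 and Slc32a1 in Top1 cKO-Veh. Libraries with the same number deviated together across all genes, so a second fit of each comparison took the replicate number as a block. Calls are at a false discovery rate (FDR) of 0.01 over all 23893 genes, by edgeR's quasi-likelihood test, first without and then with this block. The shares of all genes called include 5182 genes without a count, whereas the 10 genes all had a mean of at least 1 CPM. With a filter on low counts, which kept 11712 genes, the unblocked share in WT-Topot against WT-Veh was 4.09% instead of 2.72%.

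In WT-Topot against WT-Veh, 1 of the 10 genes was called without the block (Erbb4, lower), where 2.72% of all genes were called. With the block 5 were called, Gad1, Gad2 and Erbb4 lower and Dlx1 and Lhx6 higher, where 8.25% of all genes were. The groups did not overlap for 3 of the 10 genes, beside 26.0% of all genes whose mean was 1 CPM or more. The median log2 fold change of the 10 genes was -0.02, and that of all genes with at least 1 CPM was 0.03.

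In Top1 cKO-Veh against WT-Veh, 0 of the 10 were called without the block, as also by DESeq2 and by edgeR's exact test, and 2 of the 10 (Dlx1 and Erbb4) had an unadjusted p under 0.05. Of all genes 0.172% were called. With the block 3 were called, Erbb4 lower and Dlx1 and Lhx6 higher, where 5.56% of all genes were. The groups overlapped for all 10 genes, whereas 19.9% of genes with at least 1 CPM did not overlap.

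In Top1 cKO-Topot against WT-Veh, 1 gene was called without the block (Erbb4, lower), with 1.68% of all genes called, and 3 with it (Erbb4 lower, Dlx1 and Lhx6 higher), with 7.37% called. Groups did not overlap for 2 of the 10, beside 26.5% of genes with at least 1 CPM. These 3 comparisons share the WT-Veh libraries, so that a low or high WT-Veh library moves a gene in all of them at once.

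Topotecan in the Top1 cKO cultures moved none of the 10 genes past the threshold. In Top1 cKO-Topot against Top1 cKO-Veh 0 were called without and 0 with the block, where 0.00837% and 2.59% of all genes were, and DESeq2 and the exact test also called 0. Erbb4 alone had an unadjusted p under 0.05 without the block. The groups did not overlap for 1 gene, Dlx5, beside 11.7% of genes with at least 1 CPM.

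Between WT-Topot and Top1 cKO-Veh, the groups with topotecan but no CRE and with CRE but no topotecan, the calls with the block were mostly GABA genes. Gad2 was called lower in WT-Topot without the block, where 1.53% of all genes were called, and Gad1, Gad2, Slc32a1 and Erbb4 with it, where 7.73% were. The groups did not overlap for 5 of the 10 genes, all lower in WT-Topot, beside 24.5% of genes with at least 1 CPM.

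**Figure D2:**
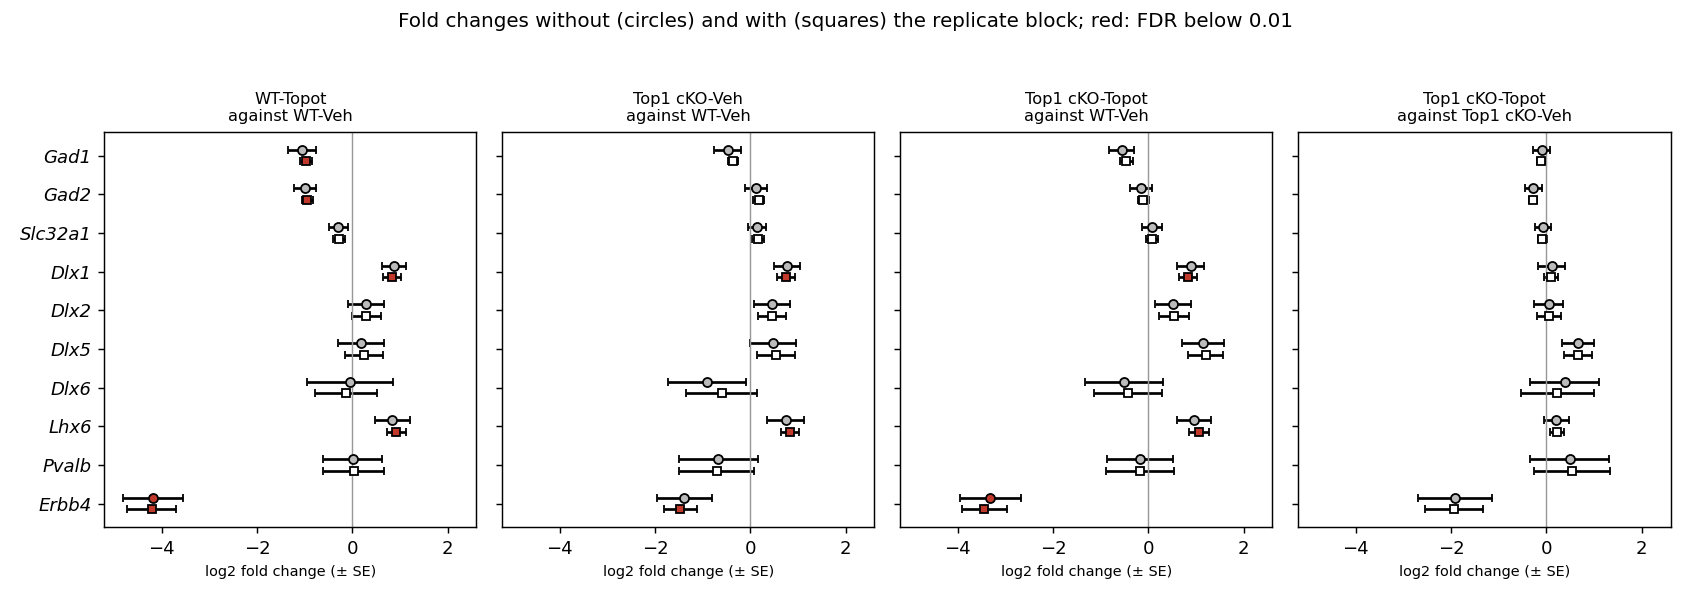
Log2 fold change of each gene (x axis, bars are the standard error) in 4 comparisons; circles are fits without and squares with the replicate block, and red marks an FDR below 0.01. With the block, Gad1 (-0.98), Gad2 (-0.94) and Erbb4 (-4.21) are lower and Dlx1 (0.83) and Lhx6 (0.92) higher in WT-Topot than in WT-Veh, and no gene is called in Top1 cKO-Topot against Top1 cKO-Veh.

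Gad1, which encodes GAD67, the GAD form that makes most of the brain's GABA, had 218, 633 and 496 CPM in the WT-Veh libraries (replicates 1, 2 and 3) and 143, 243 and 260 CPM in WT-Topot. It had 315, 368 and 285 CPM in Top1 cKO-Veh and 243, 380 and 275 CPM in Top1 cKO-Topot. The WT-Topot libraries were the lower of each replicate pair, but WT-Veh replicate 1 lay among them, so the groups overlapped. The group means were 449 ± 212, 215 ± 63.5, 323 ± 42.3 and 299 ± 71.9 CPM in the same order of groups. The log2 fold change in WT-Topot was -1.06 (SE 0.29, adjusted p = 0.0405), above the threshold, and -0.98 with the block (SE 0.12, adjusted p = 4.31e-11). In bulk cultures, fewer interneurons and less of a transcript per interneuron cannot be told apart.

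Gad2, which encodes GAD65, the form held at nerve terminals, had 307, 621 and 358 CPM in WT-Veh and 173, 229 and 243 CPM in WT-Topot. Every WT-Topot library was below every WT-Veh library. The mean was 429 ± 168 CPM in WT-Veh and 215 ± 36.9 CPM in WT-Topot, with a log2 fold change of -0.99 (SE 0.23, adjusted p = 0.0129) without the block and -0.94 (adjusted p = 2.95e-10) with it. Without WT-Veh replicate 2, the highest library, the adjusted p without the block was 0.0843 for Gad2 and 0.176 for Gad1, and the log2 fold changes were -0.63 and -0.72.

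After deletion Gad2 stayed within the range of WT-Veh, at 468, 528 and 396 CPM in Top1 cKO-Veh and 338, 479 and 324 CPM in Top1 cKO-Topot. Gad2 was thus at 464 ± 66.2 CPM in Top1 cKO-Veh against 215 ± 36.9 CPM in WT-Topot, and none of the libraries of these groups overlapped. The log2 fold change of WT-Topot against Top1 cKO-Veh was -1.11 (SE 0.18, adjusted p = 0.00122), or -1.12 with the block (adjusted p = 2.02e-10). Gad1 was likewise lower in all WT-Topot libraries than in those of Top1 cKO-Veh, by a log2 fold change of -0.59 (adjusted p = 0.165), or -0.62 with the block (adjusted p = 1.75e-04). For Gad1 in Top1 cKO-Veh against WT-Veh the log2 fold change was -0.47 (adjusted p = 0.757) and with the block -0.36 (adjusted p = 0.0168).

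Slc32a1, the vesicular GABA transporter, had the smallest log2 fold change of the GABA genes in WT-Topot. It had 146, 224 and 201 CPM in WT-Veh, 124, 169 and 171 CPM in WT-Topot, 206, 225 and 196 CPM in Top1 cKO-Veh, and 166, 244 and 181 CPM in Top1 cKO-Topot. WT-Topot was the lower library in 3 of 3 replicate pairs, with overlapping groups. Its log2 fold change in WT-Topot was -0.29 (SE 0.20, adjusted p = 0.694), and -0.29 (adjusted p = 0.172) with the block. Against Top1 cKO-Veh the WT-Topot libraries were all lower, with a log2 fold change of -0.44 (adjusted p = 0.258), or -0.45 with the block (adjusted p = 0.00415).

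The effect of topotecan on the GAD genes was compared between the genotypes by an interaction term over all 12 libraries. Without the block 0 of the 10 genes passed, where 0.435% of all genes did, DESeq2 also called 0, and Gad1 and Gad2 had an unadjusted p under 0.05. The effect in Top1 cKO cells was above that in WT cells by 0.95 log2 units for Gad1 (SE 0.40, adjusted p = 0.469) and by 0.71 for Gad2 (SE 0.32, adjusted p = 0.549). With the block Gad1 was the only one of the 10 that passed, at 0.86 (SE 0.20, adjusted p = 0.00345), where 3.97% of all genes did, and Gad2 did not pass, at 0.64 (SE 0.17, adjusted p = 0.0106). Without WT-Veh replicate 2 the unblocked values fell to 0.62 for Gad1 (adjusted p = 0.858) and 0.34 for Gad2 (adjusted p = 1). Within Top1 cKO cells, the log2 fold change with topotecan was -0.11 for Gad1 (adjusted p = 0.894) and -0.28 for Gad2 (adjusted p = 0.0217) with the block.

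Among the transcription factors, Dlx1 and Lhx6 were higher, in the fits with the block, in each of the other 3 groups than in WT-Veh. Dlx1, a homeodomain factor of interneuron precursors that stays on in some mature interneurons, had 23.7, 36.8 and 29.4 CPM in WT-Veh and 37.9, 56.4 and 68.9 CPM in WT-Topot. All WT-Topot libraries were above all WT-Veh libraries. It had 35.6, 63.2 and 53.1 CPM in Top1 cKO-Veh and 34.7, 79.4 and 48.5 CPM in Top1 cKO-Topot, where replicate 1 overlapped with WT-Veh.

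The log2 fold changes of Dlx1 against WT-Veh were 0.87 (SE 0.26, adjusted p = 0.0621) in WT-Topot, 0.77 (SE 0.26, adjusted p = 0.286) in Top1 cKO-Veh and 0.89 (SE 0.29, adjusted p = 0.0993) in Top1 cKO-Topot. With the block they were 0.83 (adjusted p = 5.05e-04), 0.74 (adjusted p = 0.00192) and 0.83 (adjusted p = 0.00206), and Dlx1 was higher than WT-Veh in 3 of 3 replicate pairs in each. Its antisense neighbour Dlx1as was at 30.1 ± 12.3 CPM in the WT-Veh group, 41.7 ± 15.4 CPM with topotecan, 43.7 ± 18.6 CPM after deletion and 38.5 ± 24.0 CPM with both.

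Lhx6, the factor that specifies interneurons of the medial ganglionic eminence, had 11.4, 29.4 and 50.1 CPM in WT-Veh, with a wide spread between the libraries. It had 31.8, 58.1 and 67.2 CPM in WT-Topot, 32.1, 52.4 and 63.1 CPM in Top1 cKO-Veh, and 38.2, 68.1 and 62.1 CPM in Top1 cKO-Topot. Groups overlapped, yet each treated or deleted library was above the WT-Veh library of the same number. Its log2 fold change was 0.84 (SE 0.37, adjusted p = 0.315), 0.74 (SE 0.39, adjusted p = 0.682) and 0.96 (SE 0.36, adjusted p = 0.182) in the 3 comparisons with WT-Veh. With the block it was 0.92 (adjusted p = 1.67e-04), 0.83 (adjusted p = 4.26e-04) and 1.06 (adjusted p = 3.65e-04).

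The other DLX factors were lower in level and less precise. Dlx2, the neighbour of Dlx1 that acts with it, had 9.66, 12.7 and 4.61 CPM in WT-Veh and between 9.73 and 15.3 CPM in the other 9 libraries, with no comparison past the threshold. Dlx5, of the Dlx5 and Dlx6 pair that the earlier DLX factors switch on, had 2.34, 5.26 and 8.64 CPM in WT-Veh, 5.03, 6.01 and 6.42 CPM in WT-Topot, and 6.65, 6.87 and 8.02 CPM in Top1 cKO-Veh. Its Top1 cKO-Topot libraries, at 11.6, 10.96 and 10.9 CPM, lay above all other 9 libraries.

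The log2 fold change of Dlx5 in Top1 cKO-Topot was 1.14 against WT-Veh (SE 0.45, adjusted p = 0.209), or 1.20 with the block (adjusted p = 0.0248), and 0.65 against Top1 cKO-Veh (adjusted p = 1.00), or 0.65 with the block (adjusted p = 0.289). Dlx6 was at most 7.49 CPM in any library and spread over the groups without order: the third WT-Veh and WT-Topot libraries had 7.49 and 7.28 CPM, and the first and second had 0.286 to 1.34 CPM. Dlx6os1, the antisense transcript whose span covers Dlx6, was at 52.5 ± 24.2 CPM in WT-Veh and 40.1 ± 15.2 CPM in WT-Topot.

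Pvalb gave no measurable difference. It had 1.46, 2.63 and 3.46 CPM in WT-Veh, 2.68, 2.004 and 2.57 CPM in WT-Topot, 3.13, 0.229 and 1.503 CPM in Top1 cKO-Veh, and 3.19, 0.996 and 2.19 CPM in Top1 cKO-Topot, from 12 to 21 counts in each group. Its log2 fold change in WT-Topot was 0.01 with an SE of 0.61, so a change of the size seen for Gad1 was not detectable at this depth.

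Erbb4, the neuregulin receptor, changed most of the 10 genes. It had 6.14, 22.8 and 10.4 CPM in WT-Veh, 0.670, 0.859 and 0.428 CPM in WT-Topot, 3.91, 8.70 and 1.00 CPM in Top1 cKO-Veh, and 0.398, 2.66 and 0.437 CPM in Top1 cKO-Topot. Every WT-Topot and every Top1 cKO-Topot library was below every WT-Veh library, and the Top1 cKO-Veh libraries overlapped with WT-Veh and with Top1 cKO-Topot and were above every WT-Topot library.

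These levels rest on few reads: 91 counts over the 3 WT-Veh libraries, 6 over those of WT-Topot (2, 3 and 1), 50 over those of Top1 cKO-Veh (10, 38 and 2) and 10 over those of Top1 cKO-Topot (1, 8 and 1). The ratio of the pooled counts per library size was 0.0556 for WT-Topot against WT-Veh (95% exact interval 0.0199 to 0.126), 0.458 for Top1 cKO-Veh against WT-Veh (0.318 to 0.654) and 0.105 for Top1 cKO-Topot against WT-Veh (0.0485 to 0.201). These intervals cover counting error only. The fitted log2 fold change in WT-Topot was -4.17 (SE 0.63, adjusted p = 1.74e-04), or -4.21 with the block (adjusted p = 8.63e-12).

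In Top1 cKO-Veh the log2 fold change of Erbb4 was -1.38 (SE 0.57, adjusted p = 0.453), or -1.47 with the block (adjusted p = 6.11e-04), with the lower library in 3 of 3 replicate pairs. Leaving out WT-Veh replicate 2 gave -0.70 (adjusted p = 1, no block), and leaving out Top1 cKO-Veh replicate 2 gave -2.31 (adjusted p = 0.211). In Top1 cKO-Topot it was -3.31 against WT-Veh (SE 0.65, adjusted p = 0.00355), a call lost without WT-Veh replicate 2 (-2.63, adjusted p = 0.0408) and with a filter on low counts (adjusted p = 0.0231), and -3.44 with the block (adjusted p = 5.10e-07). Topotecan in Top1 cKO cells gave a log2 fold change of -1.92 (SE 0.78, adjusted p = 0.963), or -1.93 with the block (adjusted p = 0.0344), and a count ratio of 0.228 (0.103 to 0.456). It was -3.39 without Top1 cKO-Topot replicate 2 and -1.02 without Top1 cKO-Veh replicate 2 (adjusted p = 0.521 and 1, no block). WT-Topot was below Top1 cKO-Veh by -2.79 on the log2 scale (adjusted p = 0.0456), or -2.77 with the block (adjusted p = 0.00141), and by -1.85 without Top1 cKO-Veh replicate 2 (adjusted p = 0.538, no block). The interaction of topotecan and deletion was 2.23 (SE 1.17, adjusted p = 0.677), or 2.30 with the block (adjusted p = 0.108), and 0.75 without Top1 cKO-Topot replicate 2 and 3.14 without Top1 cKO-Veh replicate 2 (adjusted p = 1 and 0.343, no block).

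Erbb4 is also the one gene of the 10 that spans more than 100 kb. Among the 179 genes of more than 500 kb with at least 1 CPM, the median log2 fold change in WT-Topot was -2.11, and 7 of them were below Erbb4. The median was -0.37 in genes of 100 to 500 kb and 0.08 in genes of up to 100 kb. Gad1 and Gad2, at 48.9 and 71.7 kb, had log2 fold changes of -1.06 and -0.99, below that last median. In Top1 cKO-Veh the median of genes of more than 500 kb was -0.54, with 11 of 182 below Erbb4, and in Top1 cKO-Topot against WT-Veh it was -1.21, with 3 of 180 below Erbb4.

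**Figure D3:**
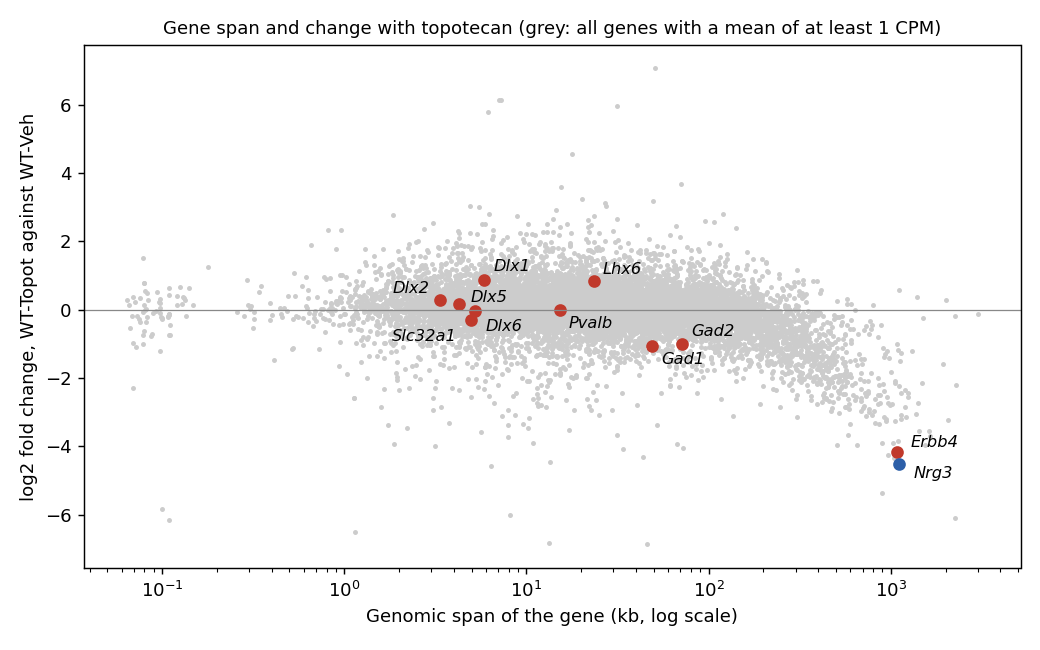
Log2 fold change in WT-Topot against WT-Veh (y axis) by the genomic span of the gene in kb (log axis); grey points are all genes of known span whose mean was 1 CPM or more, red points the 10 genes and the blue point the neuregulin gene Nrg3. Erbb4 (1076 kb, -4.17) and Nrg3 (1104 kb, -4.51) lie together at the lower right. Gad1 and Gad2 lie below and Dlx1 and Lhx6 above the median of all genes of up to 100 kb (0.08).

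The 10 genes were also set against each other within each library, as a description. The summed level of Gad1 and Gad2 was 3.60 to 5.59 times that of Slc32a1 in WT-Veh, 2.55 to 2.94 times in WT-Topot, 3.47 to 3.99 times in Top1 cKO-Veh and 3.31 to 3.52 times in Top1 cKO-Topot. The WT-Topot libraries were therefore below all others in GAD relative to the transporter. The summed level of Dlx1 and Lhx6 relative to Slc32a1 was 0.241 to 0.395 in WT-Veh and 0.562 to 0.797 in WT-Topot, with 0.328 to 0.592 and 0.438 to 0.611 in Top1 cKO-Veh and Top1 cKO-Topot.

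The log2 ratio of Erbb4 to the sum of Gad1, Gad2 and Slc32a1 was -6.77, -6.02 and -6.67 in WT-Veh and -9.36, -9.55 and -10.62 in WT-Topot. It was -7.98, -7.01 and -9.77 in Top1 cKO-Veh and -10.87, -8.70 and -10.80 in Top1 cKO-Topot. Erbb4 was thus lower relative to the GABA genes in all 9 libraries than in any WT-Veh library. Gad1 was 0.709 to 1.39 times Gad2 in WT-Veh, 0.824 to 1.07 times in WT-Topot, 0.673 to 0.720 times in Top1 cKO-Veh and 0.718 to 0.846 times in Top1 cKO-Topot, so each of the other groups overlapped with WT-Veh.

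Against the vesicular glutamate transporters of excitatory neurons, Slc17a7 and Slc17a6, the GABA genes were lower in WT-Topot than in any other group. The log2 ratio of the GABA sum to the sum of these 2 transporters was -0.66, 0.35 and 0.22 in WT-Veh and -1.84, -1.22 and -0.90 in WT-Topot. After deletion it was 0.05, 0.19 and -0.16 in Top1 cKO-Veh and -0.29, 0.41 and -0.13 in Top1 cKO-Topot. Both sides of the ratio moved: the GABA sum was 440 to 674 CPM in WT-Topot and 671 to 1478 CPM in WT-Veh, and the transporter sum 1254 to 1577 CPM and 909 to 1160 CPM.

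**Figure D4:**
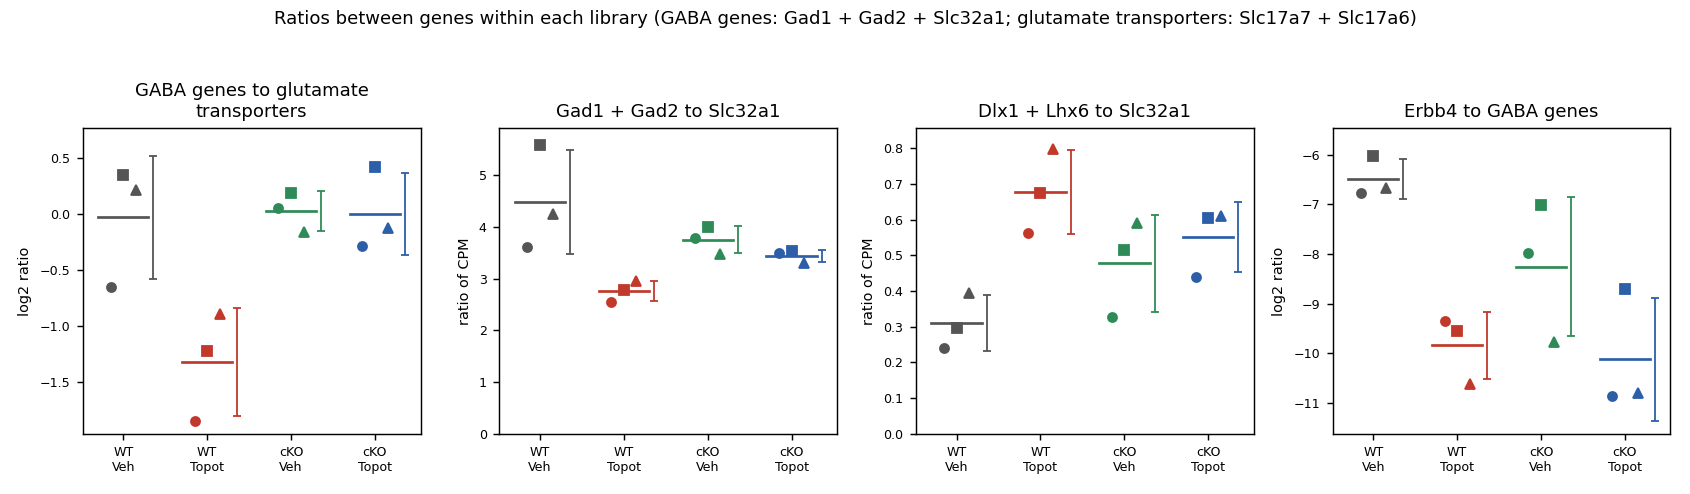
Ratios between genes within each library by group (y axes: log2 ratio or ratio of CPM), with points for libraries (circle, square and triangle for replicates 1, 2 and 3), lines for means and bars for the SD. The WT-Topot libraries are the lowest in GABA genes to glutamate transporters (-1.84 to -0.90) and in Gad1 and Gad2 to Slc32a1 (2.55 to 2.94), and in the ratio of Erbb4 to GABA genes all WT-Veh libraries (-6.77 to -6.02) are above all others.

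Markers of other cell types moved as well in WT-Topot. Of 8 astrocyte markers, all with at least 1 CPM, 3 were called lower (Gfap, log2 fold change -2.54, Slc1a3, -1.52, and Slc1a2, -1.39) and 5 with the block, and their summed level was 2370 to 4826 CPM in WT-Veh and 1087 to 1836 CPM in WT-Topot. It was 2685 to 6145 CPM in Top1 cKO-Veh and 1686 to 3110 CPM in Top1 cKO-Topot. Of 12 cortical projection neuron markers 1 was called higher (Tbr1, 1.12), with the block 3 higher and 1 lower, and their sum was 2800 to 3029 CPM in WT-Veh and 3116 to 3558 CPM in WT-Topot. Of 9 markers of striatal projection neurons, which also use GABA, 1 was called lower (Penk, -1.31), with the block 2 lower and 1 higher, and their sum was 390 to 580 CPM in WT-Veh and 334 to 543 CPM in WT-Topot. Of 8 pan-neuronal markers 1 was called lower (Rbfox3, -0.96), with the block 4 lower and 1 higher, the median log2 fold change of the list was -0.35, and their sum was 3940 to 5344 CPM in WT-Veh and 3720 to 4094 CPM in WT-Topot. By edgeR's quasi-likelihood test without the block 0 of 8 oligodendrocyte, 7 microglia, 6 endothelial and mural and 6 proliferation markers were called, with an unadjusted p under 0.05 for 3 of the oligodendrocyte markers and 0 of the others. With the block 1 oligodendrocyte marker was lower and 1 higher, and 0 of the others were called. The part of these cells in the levels of the 10 genes was not tested.

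Other interneuron genes gave the 10 genes their context. Of 20 markers of interneuron subtypes, 2 were called lower and 2 higher in WT-Topot, and 9 lower and 2 higher with the block, with a median log2 fold change of -0.42 beside 0.03 over all genes with at least 1 CPM. Lower were Reln, a secreted glycoprotein (-2.67, adjusted p = 2.26e-05), and the neuropeptide gene Cort (-3.36, adjusted p = 0.00147). Higher were the calcium-binding proteins Calb1 (1.36, adjusted p = 1.88e-04) and Calb2 (1.98, adjusted p = 4.39e-04), of which Calb1 is also made by excitatory neurons. Whether the reads of the other subtype markers, Reln and Calb2 among them, came from interneurons alone was not tested in these bulk cultures. With the block only, and named here after their values were seen, the neuropeptide genes Sst (-1.06, adjusted p = 3.63e-10), Npy (-1.39, adjusted p = 1.48e-05) and Vip (-2.55, adjusted p = 9.76e-05) were lower.

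Of 23 factors of the interneuron lineage, 1 was called lower and 2 higher in WT-Topot, and 3 lower and 4 higher with the block. Adarb2, an RNA-binding protein of interneurons from the caudal ganglionic eminence that spans 566 kb, was lower (-2.85, adjusted p = 8.04e-04). Sp9, a zinc finger factor (1.56, adjusted p = 0.00718), and Cxcr4, a chemokine receptor of migrating interneurons (1.96, adjusted p = 0.00457), were higher, in the direction of Dlx1 and Lhx6. With the block only, and named after its value was seen, Sox6, which spans 567 kb, was 1 of the 3 lower factors (-1.25, adjusted p = 1.47e-05). The 4 factors that were higher with the block stand beside it.

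Of 13 ligands and receptors of the ErbB family other than Erbb4, 1 was called in WT-Topot, and 2 with the block. Nrg3, a neuregulin that binds ErbB4, fell from 110.3 ± 2.78 to 4.67 ± 2.88 CPM (log2 fold change -4.51, SE 0.31, adjusted p = 3.21e-08). It was also lower in Top1 cKO-Topot than in WT-Veh (-3.004, adjusted p = 1.60e-07). In Top1 cKO-Veh its log2 fold change was -1.21 (adjusted p = 0.0101), and -1.20 with the block (adjusted p = 9.67e-13). The receptor and this ligand both had their lowest group mean in WT-Topot.

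Among genes that take up, supply or break down GABA, calls were made in both directions with the block. Of 8 such genes 0 were called in WT-Topot by edgeR's quasi-likelihood test without the block, 4 had an unadjusted p under 0.05, and with the block 1 was lower and 3 higher. The GABA transporter Slc6a11 (1.15, adjusted p = 1.61e-07), named after its value was seen, was among those higher with the block.

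**Figure D5:**
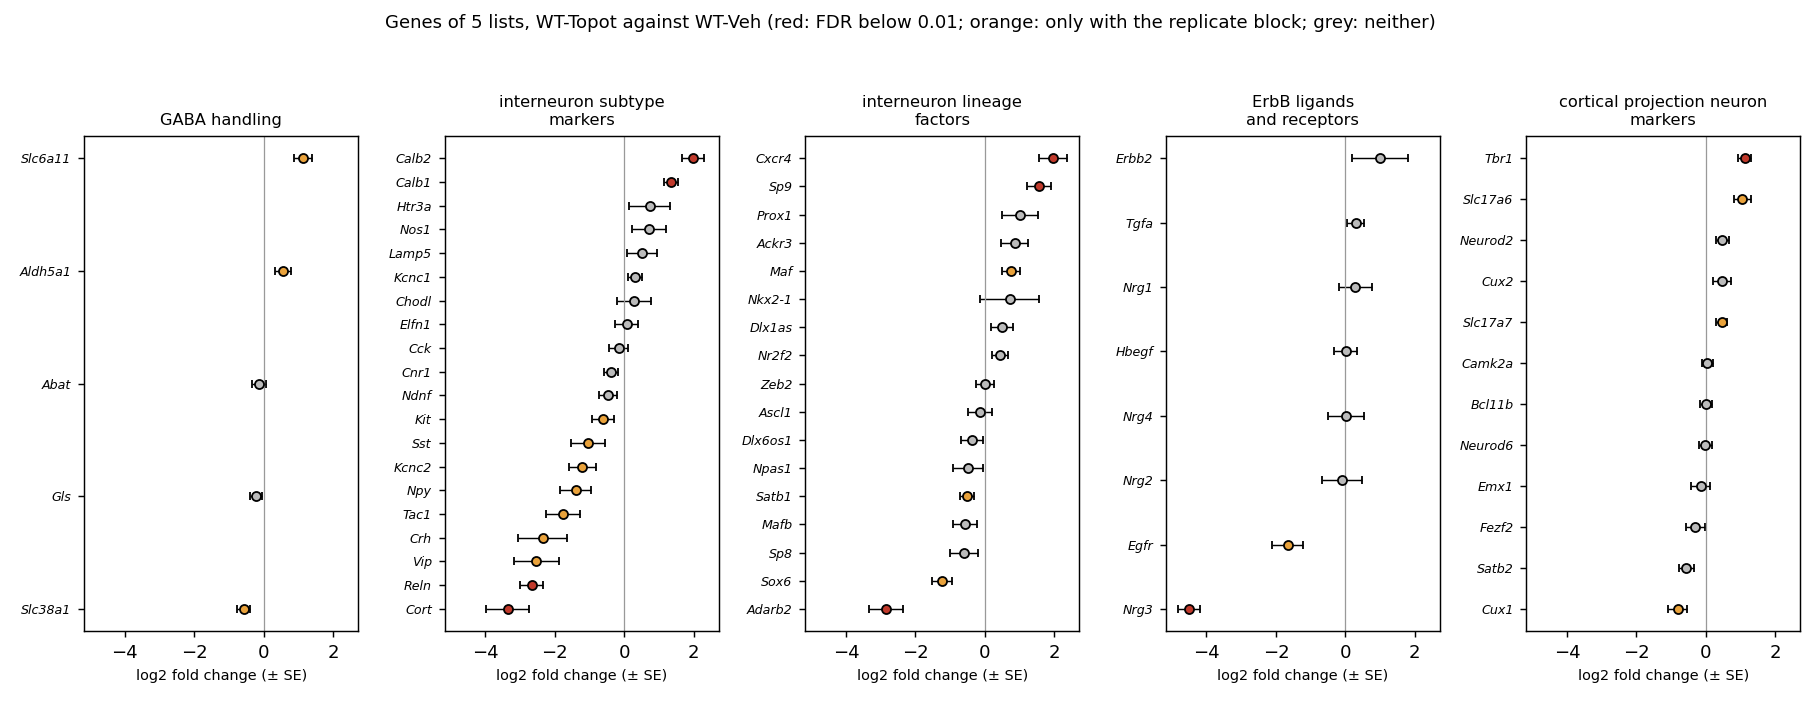
Log2 fold change in WT-Topot against WT-Veh (x axis, bars are the standard error) of genes of 5 lists whose mean over both groups is at least 1 CPM; red points pass an FDR of 0.01, orange points only with the replicate block, and grey points neither. Cort, Reln, Adarb2 and Nrg3 (-4.51) lie to the left, and Calb1, Calb2, Sp9, Cxcr4 and Tbr1 to the right.

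In Top1 cKO-Veh against WT-Veh no gene of these lists was called without the block. Among the 20 subtype markers, 4 had an unadjusted p under 0.05, and with the block 1 was lower and 4 higher. In Top1 cKO-Topot against WT-Veh, Reln (-1.93, adjusted p = 0.00152), Adarb2 (-2.34, adjusted p = 0.00468) and the chromatin factor Satb1 (-1.14, adjusted p = 0.00226) were lower. In WT-Topot against Top1 cKO-Veh, 2 subtype markers were called lower, Reln (-2.36, adjusted p = 7.97e-04) and the neuropeptide gene Cck (-0.91, adjusted p = 0.00945), and 1 higher, Calb2 (1.67, adjusted p = 0.00123). With the block 12 of the 20 were lower and 2 higher there, with a median log2 fold change of -0.87 beside 0.01 over all genes of that level.

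The genes whose pattern over the 12 libraries was most like that of Erbb4 and of Gad1 were sought among 9501 genes whose mean was 10 CPM or more, by the root mean square difference of centred log2(CPM + 1) values. Nearest to Erbb4 were Reln (0.467), Cdh12 (0.478), Grm7 (0.481), Pcdh9 (0.487) and Luzp2 (0.513), whose spans are 429 to 922 kb. Nearest to Gad1 were Etl4 (0.242), Rcan2 (0.274), Cep41 (0.277), Nek7 (0.289) and AK129341 (0.294), whose spans range from 40.3 to 901 kb. The SD over the libraries, on the same scale, was 1.40 for Erbb4 and 0.563 for Gad1. Of these genes Reln is also among the interneuron subtype markers above.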

How the data were processed

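RNA-seq was measured in 12 cultures, grouped by their labels. Per the paper's methods, the authors filtered paired-end reads with TagDust, aligned them with TopHat to mm9, removed rRNA reads and deposited raw counts over RefSeq exons per gene symbol, without normalization. The counting program, its use of strand and software versions are not given in the sources used here.

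From the deposited counts (23893 genes, 5182 without a count, 1730164 to 4583777 counts per library), the 6 libraries of each pair of groups were fitted with edgeR 4.0.16 (R 4.3.3; TMM, glmQLFit and glmQLFTest, no gene filter, Benjamini-Hochberg adjustment over all genes, FDR 0.01), and the interaction on all 12. Over 13720 genes, deviations from group means correlated at 0.261 to 0.485 in the 18 pairs of libraries with the same replicate number and at -0.384 to -0.0494 in the other 36 pairs, so the numbers, taken from the labels, were treated as pairs and the blocked value is given where it changes a call. What a number stands for is not stated.

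Alternatives were DESeq2 1.42.0 and its size factors, edgeR's exact test, filterByExpr, 1 fit of all libraries, an FDR of 0.05 and leaving out each library. Spans, loci and exon lengths are from GENCODE vM1 (NCBIM37), and 1813 symbols did not match it. All 10 genes are named throughout. Beyond them the text names Top1, up to 4 genes per list and comparison that passed the FDR, and the 5 genes most like Erbb4 or Gad1. Outside this rule, Sst, Npy, Vip, Sox6 and Slc6a11 passed only with the block and were named after their values were seen. Dlx1as, Dlx6os1 and Gm14205 are named as transcripts that overlap a member, and Slc17a7 and Slc17a6 as parts of a ratio. Other lists were pan-neuronal, oligodendrocyte, microglia, endothelial and proliferation markers. Some genes of the lists are not reported here by name or drawn, but stay in the counts. Genes, lists and rules were chosen with earlier results of these data known.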

Additional observations from a re-analysis of the deposited data

Results flagged for a closer look

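The effect of topotecan on Gad1 differed between the genotypes in the test of the difference itself, with the replicate number as a block: the log2 fold change in Top1 cKO cells minus that in WT cells was 0.858 (SE 0.20, adjusted p = 0.00345 by edgeR's quasi-likelihood test). Gad1 was lower with topotecan in 3 of 3 replicate pairs of WT cultures and in 2 of 3 pairs of Top1 cKO cultures. Without the block the difference was 0.95 (SE 0.40, adjusted p = 0.469), which does not pass the threshold, and it was 0.62 without WT-Veh replicate 2 (adjusted p = 0.858). Libraries were left out only in fits without the block, so how far the blocked value rests on WT-Veh replicate 2 was not tested.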

How the results depend on the processing

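With the replicate block the number of the 10 genes called was 5 instead of 1 in WT-Topot against WT-Veh, 3 instead of 0 in Top1 cKO-Veh, 3 instead of 1 in Top1 cKO-Topot, 4 instead of 1 in WT-Topot against Top1 cKO-Veh and 1 instead of 0 in the interaction, and it ended no call. Calls in WT-Topot were 2 by DESeq2 (Gad2 and Erbb4) and 3 at an FDR of 0.05, and 1 to 4 when each library was left out in turn (Gad1 and Gad2 passed without WT-Veh replicate 1, those 2 and Lhx6 without replicate 3, Gad2 without WT-Topot replicate 3 and Dlx1 without WT-Topot replicate 1). In Top1 cKO-Topot against WT-Veh they were 0 with filterByExpr and 0 to 2 with a library left out, where WT-Veh replicate 2 took the call of Erbb4 away, and Gad1 or Lhx6 passed without WT-Veh replicate 1 or 3. In WT-Topot against Top1 cKO-Veh they were 2 at an FDR of 0.05 and 1 to 2 with a library left out, Erbb4 passing without Top1 cKO-Veh replicate 1 or 3 and at an adjusted p of 0.538 without replicate 2. The call of Erbb4 in WT-Topot held under every alternative, at an adjusted p of 8.63e-12 to 0.00268.

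No called gene changed direction. Pvalb in WT-Topot was -0.018 with DESeq2's size factors, -0.042 by DESeq2 and -0.000434 in 1 fit of all libraries. With a library left out, log2 fold changes that crossed 0 ranged, in WT-Topot against WT-Veh, from -0.24 to 0.66 (Dlx5), -1.82 to 1.38 (Dlx6) and -0.33 to 0.28 (Pvalb). In Top1 cKO-Veh they ranged from -0.081 to 0.48 (Gad2), -0.027 to 0.28 (Slc32a1) and -1.37 to 0.53 (Dlx6). In Top1 cKO-Topot against WT-Veh they ranged from -0.37 to 0.22 (Gad2), -0.13 to 0.21 (Slc32a1), -1.34 to 0.92 (Dlx6) and -0.61 to 0.16 (Pvalb). In Top1 cKO-Topot against Top1 cKO-Veh they ranged from -0.31 to 0.019 (Gad1), -0.25 to 0.021 (Slc32a1), -0.28 to 0.34 (Dlx1), -0.090 to 0.13 (Dlx2), -0.46 to 0.73 (Dlx6), -0.021 to 0.41 (Lhx6) and -0.17 to 1.55 (Pvalb). In WT-Topot against Top1 cKO-Veh they ranged from -0.11 to 0.31 (Dlx1), -0.90 to 1.45 (Dlx6) and -0.13 to 0.36 (Lhx6), and in the interaction from -0.54 to 0.033 (Dlx2), -0.021 to 0.88 (Dlx5), -1.002 to 2.19 (Dlx6) and -0.19 to 1.54 (Pvalb). The causes were not tested.

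Over all genes the calls changed by more than 1.5 times in each comparison with the block: 1970 instead of 651 in WT-Topot, 1328 instead of 41 in Top1 cKO-Veh, 1760 instead of 402 in Top1 cKO-Topot, 1846 instead of 365 in WT-Topot against Top1 cKO-Veh, 620 instead of 2 for topotecan within Top1 cKO cells and 948 instead of 104 in the interaction. DESeq2 called 223, 619, 629, 53 and 357 in the last 5 of these, and the exact test 168 in Top1 cKO-Veh, 620 in WT-Topot against Top1 cKO-Veh and 40 within Top1 cKO cells. With filterByExpr the counts were 3 in Top1 cKO-Veh, 249 in Top1 cKO-Topot, 0 within Top1 cKO cells, 238 in WT-Topot against Top1 cKO-Veh and 64 in the interaction. In the order of the block counts above, an FDR of 0.05 gave 1085, 158, 864, 800, 22 and 283, and leaving out a library gave 554 to 1027, 8 to 128, 230 to 901, 214 to 871, 1 to 132 and 51 to 140. A single fit of all libraries gave 72 in Top1 cKO-Veh and 7 within Top1 cKO cells. Depth limits Dlx5, Dlx6, Pvalb and Erbb4, at 6 to 91 counts per group.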
